A study of Homo sapiens with 6 samples.

Results

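KGN cells, an established human line grown from an ovarian granulosa cell tumour, were transfected with siOGT2, an siRNA against OGT mRNA, or with the negative control siRNA siNC. The comparison of these groups covers every gene with a mean level of at least 1 FPKM over the 6 libraries of the series, which is 10547 of the 20036 genes listed. FPKM is a fragment count scaled to gene length and library total, as the authors deposited it. Each group has 2 libraries, siOGT2 replicates 1 and 2 against siNC replicates 1 and 2. The remaining pair of libraries carries another OGT siRNA, siOGT1, and enters the model for its spread and for a direct comparison of the siRNAs. All cells are labelled wild type, received siRNA with Lipofectamine 3000 and were harvested 48 hours later. RNA was taken with TRIzol and sequenced from libraries of the NEBNext Ultra II kit. The labels do not say that the libraries of a group came from separate cultures, so p-values measure the spread between these libraries, which may be technical. KGN is a single tumour line, and untransfected cells were not analysed here, so a fall with siOGT2 and a rise caused by siNC cannot be told apart. No sequence of either siRNA was at hand.

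OGT encodes the enzyme that puts a single sugar, O-GlcNAc, on proteins inside the cell, and OGA the enzyme that takes it off. An siRNA guides the Argonaute complex to a matching mRNA and can also lower other mRNAs whose 3′ UTR pairs with its seed, the bases near its 5′ end. Double-stranded RNA in the cytosol can be sensed by RIG-I-like receptors, which switch on interferon beta. Secreted interferon then acts through JAK kinases, STAT factors and IRF9 on promoters that carry interferon response elements, and so induces a large set of antiviral genes.

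The promoters of several genes that fell most are shown because the largest change in these cells lay among interferon-induced genes. Each line gives 60 bases of the gene's own strand, 5′ to 3′, all upstream of an annotated start site, from RefSeq promoters on GRCh38.p14. Capitals mark every match to the motif GAAANNGAAA or its reverse complement in the stretch, with overlapping matches in ISG15, and the motif is a pair of GAAA blocks 2 bases apart as in interferon response elements.
RSAD2, chr2:6877607-6877666, plus strand: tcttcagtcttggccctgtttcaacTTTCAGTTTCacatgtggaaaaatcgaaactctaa
TNFSF10, chr3:172523583-172523642, minus strand: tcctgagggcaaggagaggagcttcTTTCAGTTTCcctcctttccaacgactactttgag
IFIT3, chr10:89332453-89332512, plus strand: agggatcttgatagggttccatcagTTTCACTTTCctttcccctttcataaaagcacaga
RTP4, chr3:187368318-187368377, plus strand: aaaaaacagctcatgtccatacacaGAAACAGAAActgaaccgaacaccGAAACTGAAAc
ISG15, chr1:1013365-1013424, plus strand: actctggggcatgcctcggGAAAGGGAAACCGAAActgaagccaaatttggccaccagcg

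A pair of 29-base stretches from 3′ UTRs is shown for a heptamer that was picked from these same data because genes holding it were higher with siOGT2. Genes holding it also stood higher with siOGT1. Both stretches come from GENCODE 29 transcripts on GRCh38, read 5′ to 3′ along the gene's strand, with the heptamer TCGGAGA in capitals.
TPM4, chr19:16101482-16101510, plus strand: aatattttgtaTCGGAGAagctttgagca
B4GALT1, chr9:33113052-33113080, minus strand: ttcgtgaaaatTCGGAGAgtgctgctaaa

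Whole reads could be recovered from the FPKM values of every gene tested. The shallowest library was siOGT2 replicate 2 with 16595600 reads, and the deepest held 21203364. The median gene tested had between 759 and 970 reads per library. A chi-square over reads, divided by its degrees of freedom, was between 1.8 and 2.54 for the pairs within a group and between 30.5 and 35.1 for siNC against siOGT2. Mitochondrially encoded transcripts, whose share can reflect RNA quality, made up 2.03% and 2.01% of the reads with siNC and 2.33% and 2.37% with siOGT2. Their part in the results was not tested. Levels are given per library, and log2 fold changes are differences of log2(FPKM + 1), a scale that understates the change of low genes.

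OGT, the target, was lower with siOGT2 in both libraries. OGT (GRCh38 chromosome X, 71533083 to 71575897, plus strand, ENSG00000147162) was found at 22.4 and 23.4 FPKM with siNC and at 14.3 and 14.7 FPKM with siOGT2, so the groups did not overlap. The siOGT2 mean was 63.2% of the siNC mean, a log2 fold change of -0.63 (SE 0.0435, limma adjusted p = 8.88e-06). OGA lies on the minus strand of chromosome 10, 101784443 to 101818465 (ENSG00000198408). OGA was found at 64.1 and 64.8 FPKM with siNC and at 57.7 and 56.7 with siOGT2, a log2 fold change of -0.17 (SE 0.0295, adjusted p = 0.00238). OGT and OGA were the only members called among 14 tested genes of O-GlcNAc cycling and the hexosamine pathway, which makes the sugar donor UDP-GlcNAc. The share lower, 14.3%, was near the 13.4% of all genes tested, and 0 were higher against 22.1%. The library preparation is not stated to keep strand, so reads of genes that overlap on opposite strands cannot be told apart.

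Changes with siOGT2 were many, mostly small, and lopsided at the far end. Calls rest on limma's p, adjusted by Benjamini-Hochberg over the 10547 genes, with a limit of 0.05. By that rule 3740 genes (35.5%) were called, of which 2329 were higher (22.1%) and 1411 were lower (13.4%). Without adjustment 4877 genes were under 0.05. The median log2 fold change of all genes tested was 0.045, and the median size among called genes was 0.218. Falls reached further than rises: 60 genes fell and 2 rose by at least 2-fold, and 186 fell and 12 rose by at least 1.5-fold. In 7398 of the genes tested (70.1%) both siOGT2 libraries lay outside both siNC libraries, and all 3740 called genes were among them. Which direction prevailed depended on the scaling: under trimmed-mean scaling 1486 genes were higher and 1796 lower, and with columns set to equal sums 1834 and 1603. Genes higher also numbered 1360 without siNC replicate 1, 1282 without siNC replicate 2, 1511 without siOGT2 replicate 1 and 1241 without siOGT2 replicate 2. Of the genes tested, 61 averaged below 1 FPKM with siOGT2 and at least 1 with siNC, and 79 the reverse, so their place in the test rests in part on the group where they are higher. RNA came from bulk cultures, in which fewer cells of a type and less RNA per cell cannot be told apart.

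**Figure D1:**
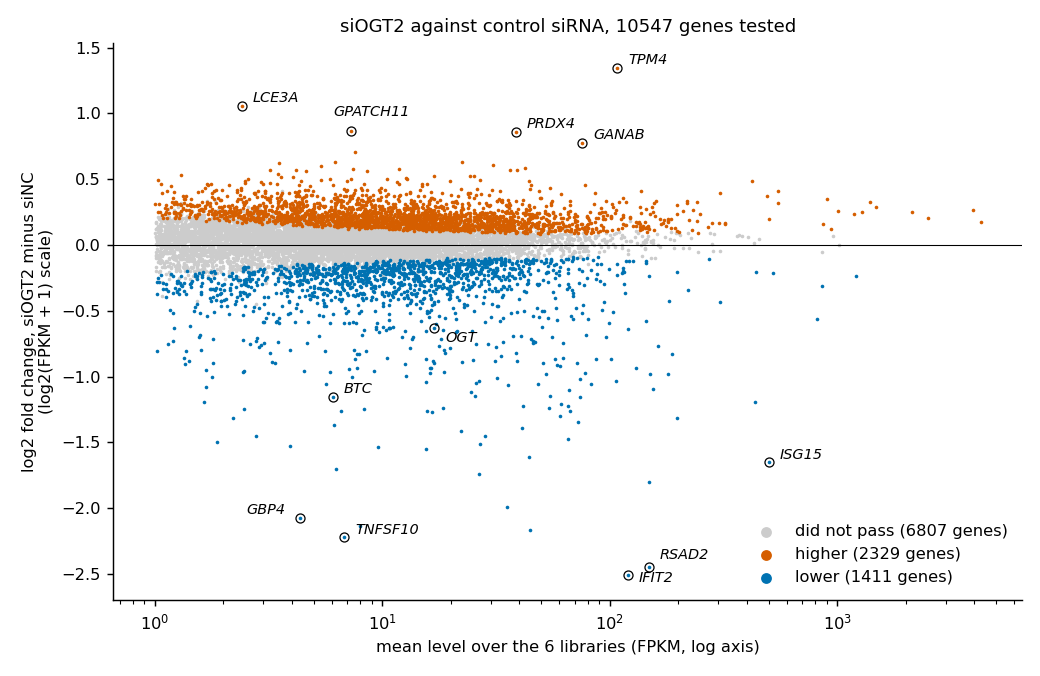
Log2 fold change of siOGT2 against siNC (vertical axis, log2(FPKM + 1) scale) against the mean level over 6 libraries in FPKM (log axis) for the 10547 genes tested, with 2329 genes called higher in orange, 1411 called lower in blue and the others in grey. Points far below 0 reach -2.51 at IFIT2, while the highest point is TPM4 at 1.35.

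The 12 largest rises had no common textbook function. TPM4, a tropomyosin that winds along actin filaments, rose most: 52.8 and 52.7 FPKM with siNC became 135.3 and 135.9 with siOGT2 (log2 fold change 1.35, SE 0.0277, adjusted p = 1.73e-08). TPM4 (ENSG00000167460) lies on chromosome 19, 16067021 to 16103005. LCE3A, a gene of the late cornified envelope of skin, went from 1.65 and 1.47 FPKM to 4.70 and 3.98 (1.06, SE 0.113, adjusted p = 0.00016). It rests on few reads, 9 and 8 with siNC and 23 and 18 with siOGT2. GPATCH11, a G-patch protein gene whose exons overlap those of EIF2AK2 on the other strand, went from 4.01 and 5.53 FPKM to 9.61 and 9.27 (0.87). PRDX4, the peroxiredoxin of the endoplasmic reticulum, went from 25.8 and 25.9 FPKM to 48.5 and 47.0 (0.86). GANAB, the catalytic subunit of glucosidase II, which trims glycans on newly made glycoproteins, went from 53 and 51.2 to 87.8 and 92.4 (0.78). In each of these genes both siOGT2 libraries stood clear above both controls.

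Of the other 7 large rises, PLAU, the urokinase protease that activates plasminogen, went from 5.69 and 6.17 FPKM to 9.80 and 10.8 (0.71), and SDC1, the heparan sulfate proteoglycan syndecan-1, from 4.57 and 4.54 to 7.50 and 7.71 (0.63). B4GALT1, which adds galactose to N-glycans, went from 16.6 and 16.0 to 25.8 in both siOGT2 libraries (0.63). The secreted phospholipase gene PLA2G12A (0.62), the mRNA export gene THOC7 (0.61), the E protein gene TCF3 (0.60) and the annexin gene ANXA7 (0.59) completed the 12. Adjusted p for the 12 ran from 1.73e-08 for TPM4 to 0.000479 for GPATCH11, and each passed in all 17 alternative settings, except that a filter at a mean of 5 FPKM left LCE3A and PLA2G12A untested. Levels with siOGT1 differed among them. TPM4 stood at 136.4 and 134.0 FPKM with siOGT1 and ANXA7 at 46.4 and 48.1, within 0.02 on the log2 scale of siOGT2. LCE3A stood at 1.61 and 1.04 FPKM and PLAU at 6.71 and 6.32, lower than with siOGT2 by the direct test of siOGT2 minus siOGT1 (1.21, adjusted p = 0.000136, and 0.59, adjusted p = 0.000215).

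The 12 largest falls were, with a single exception, members of the list of interferon-stimulated antiviral effectors. That list was chosen with earlier results of these data known. IFIT2 (chromosome 10, 89283694 to 89309276, ENSG00000119922), a protein that blocks translation of foreign RNA, went from 236.7 and 217.3 FPKM with siNC to 41.0 and 37.3 with siOGT2 (log2 fold change -2.51, SE 0.0922, adjusted p = 7.05e-07). RSAD2 (ENSG00000134321, chromosome 2, 6865806 to 6898239), the antiviral radical enzyme viperin, went from 294.6 and 269.4 to 56.8 and 45.7 (-2.44, SE 0.105, adjusted p = 8.93e-07). TNFSF10, the exception and the gene of the death ligand TRAIL, went from 14.3 and 12.8 to 2.41 and 1.86 (-2.22, SE 0.103, adjusted p = 1.08e-06). Every siOGT2 library lay far below both siNC libraries in these 3 genes. Exons of RSAD2 overlap those of CMPK2 on the other strand, and exons of IFIT2 overlap those of LIPA, so part of the reads of either pair may be shared.

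The other 9 of these falls name much of the antiviral programme. OASL, an oligoadenylate synthase-like protein that aids RNA sensing, went from 85.9 and 76.5 FPKM to 19.0 and 15.7 (-2.17), and BATF2, a bZIP transcription factor, from 15.9 and 14.5 to 2.65 and 2.73 (-2.13). The guanylate-binding protein gene GBP4 fell from 9.97 and 8.48 to 1.56 and 1.29 (-2.07). CMPK2, a mitochondrial nucleotide kinase, fell by 1.99 on the log2 scale and IFIT3, the partner of IFIT proteins in RNA binding, fell by 1.80. USP18, the protease that removes ISG15 and damps the interferon receptor, fell by 1.74, the receptor chaperone gene RTP4 by 1.70, ISG15 by 1.65 and the dynamin-like gene MX2 by 1.61. ISG15, a ubiquitin-like modifier, remained the most abundant of the 12, at 858.3 and 752.3 FPKM with siNC and 265.1 and 246.1 with siOGT2. All 12 falls passed in all 17 alternative settings, except that GBP4 was not tested with the filter at 5 FPKM. In all 12 the siOGT1 libraries lay between the siNC and siOGT2 libraries. The direct difference siOGT2 minus siOGT1 ran from -1.25 for IFIT2 (adjusted p = 4.5e-05) to -0.51 for GBP4 (adjusted p = 0.00614).

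**Figure D2:**
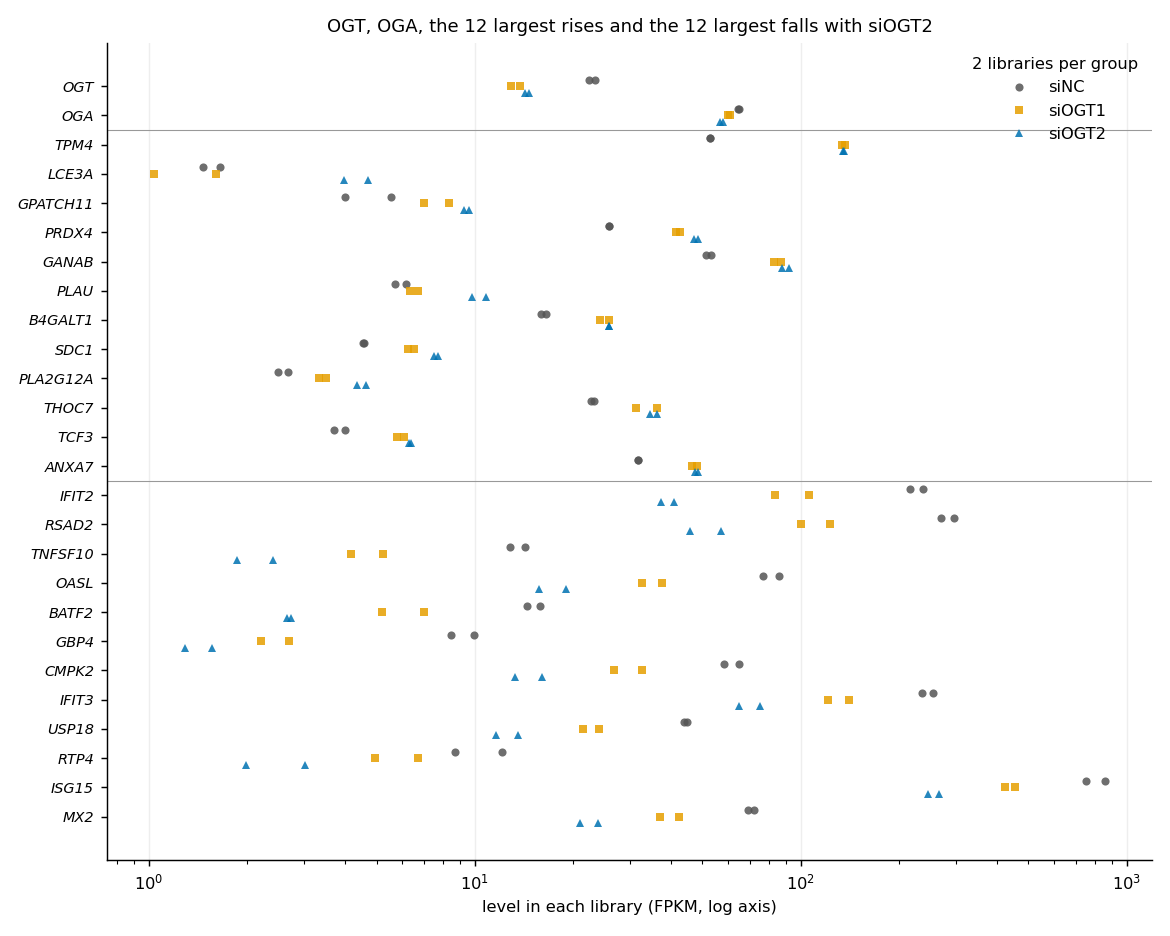
Level in each of the 6 libraries (FPKM, log axis) of OGT and OGA, then the 12 top rises and the 12 top falls, with siNC as grey circles, siOGT1 as orange squares and siOGT2 as blue triangles. For the falls siOGT1 sits between the others, while for TPM4, B4GALT1 and ANXA7 both OGT siRNAs lie together and for LCE3A and PLAU siOGT1 lies near siNC.

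Every tested member of the list of interferon-stimulated antiviral effectors fell. Like every list here, it was chosen with earlier results of these data known, so its counts are descriptions and no independent support. All 69 members tested were called lower and 0 higher, against 13.4% and 22.1% of all genes tested, with a median log2 fold change of -0.984 against 0.045. The smallest fall was that of ADAR, the RNA-editing enzyme that marks the cell's own double-stranded RNA, from 84.2 and 83.2 FPKM to 60.2 and 59.1 (-0.48). All 69 were lower in every alternative setting except the filter at 5 FPKM, which left 64 members, all lower. IDO1 and ISG20 averaged below 1 FPKM with siOGT2 and at least 1 over the 6 libraries. GBP5, the member below the filter, was at 0.973 and 0.83 FPKM with siNC and 0.186 and 0.103 with siOGT2. The summed level of the list was 6911.7 and 6502.5 FPKM in the siNC libraries, 4478.2 and 4082.7 under siOGT1 and 2956.4 and 2792.7 under siOGT2. Near-identical copies exist within the IFITM and GBP families, so their separate values are uncertain.

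Relative to the siNC mean, the median effector stood at 49.4% and 46.4% in the siOGT2 libraries. The lowest effector stood at 16.9% and 14%. In the siOGT1 libraries the median was 69.9% and 62.1%, and in the siNC libraries 102.1% and 97.9%. Against siOGT1 directly, 65 of the 69 were lower with siOGT2 and 1 was higher, where 8.35% and 8.24% of all genes were. The member that was higher was TRIM14, an adaptor on mitochondria, named here after its values were seen. TRIM14 stood at 26.1 and 25.3 FPKM in the siNC libraries, 12 and 10.1 under siOGT1 and 13.9 and 13.1 under siOGT2, a difference from siOGT1 of 0.27 (adjusted p = 0.0228) that no longer passed with no filter, with no intensity trend, without siOGT1 replicate 2 or without either siOGT2 replicate.

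**Figure D3:**
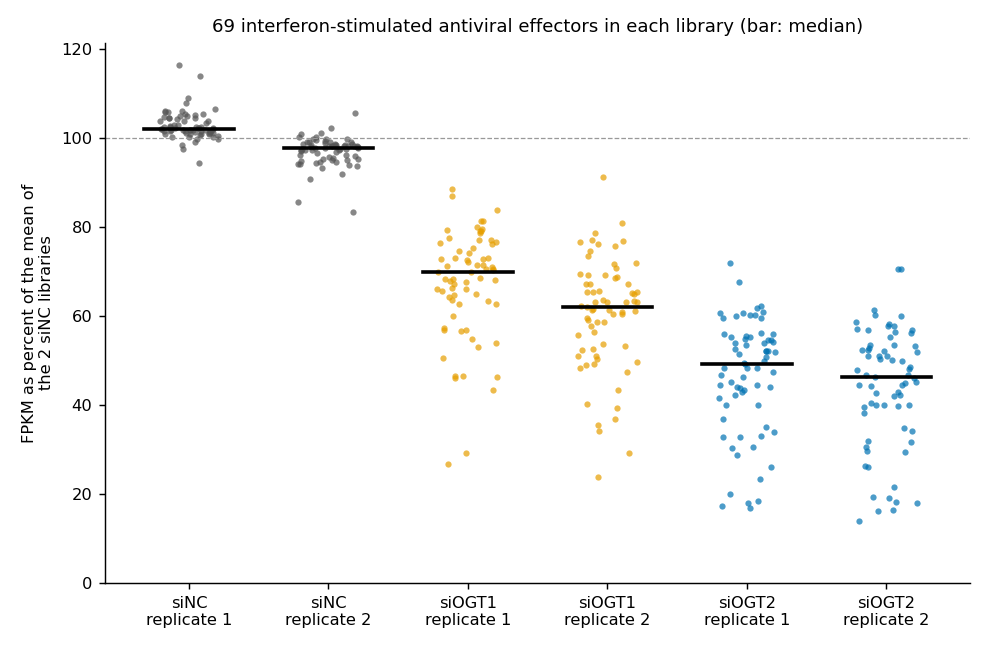
FPKM of each of the 69 antiviral effectors tested, as a percent of the mean of the siNC libraries (vertical axis from 0), in each of the 6 libraries, with a bar at the median. The bars stand at 49.4% and 46.4% in the siOGT2 libraries and at 69.9% and 62.1% in the siOGT1 libraries.

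Several sensors of nucleic acids and carriers of the interferon signal, many of them interferon-induced themselves, were lower. Of 16 genes of nucleic acid sensing and interferon induction, 9 were lower (56.2%, against 13.4% of all genes). Another 3 were higher (18.8% against 22.1%), and the median was -0.26. IFIH1, the sensor MDA5, went from 110.8 and 107.2 FPKM to 44.6 and 40.2 (log2 fold change -1.34, SE 0.0688, adjusted p = 1.47e-06). DHX58 (LGP2, -1.27), IRF7, the factor that amplifies interferon transcription (-1.26), the endosomal receptor gene TLR3 (-0.97) and RIGI (-0.90) fell as well. RIGI averaged 0.968 FPKM with siOGT2, so its place in the test rests in part on the groups where it is higher. The 3 members called higher, named after their values were seen, were RNF135, a ubiquitin ligase of RIG-I, TRAF3 and the adaptor gene MAVS, and 1 member was called higher without siNC replicate 1 or without siOGT2 replicate 2.

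Interferon beta mRNA itself was lower. IFNB1 stood at 2.60 and 2.49 FPKM with siNC and at 0.526 and 0.854 with siOGT2 (log2 fold change -1.08, SE 0.168, adjusted p = 0.00138), on 44 and 42 reads against 8 and 12. With siOGT2 it averaged 0.69 FPKM, so its place in the test rests in part on the groups where it is higher. Of 17 genes for interferon ligands, receptors and JAK-STAT signalling, 9 were lower (52.9%, against 13.4% of all genes). In the same list 1 was higher (5.88% against 22.1%), the median was -0.205, and with a mean of at least 5 FPKM 4 were lower. The member called higher was the receptor gene IFNGR1, and 0 were higher without siNC replicate 2, without siOGT2 replicate 2 or under the trimmed mean, quantile normalization or equal sums. The transcription factor gene STAT2 went from 97.5 and 97.7 FPKM to 60.7 and 60.0 (-0.68, SE 0.0452, adjusted p = 6.23e-06). The interferon regulatory factors IRF1 (-0.89) and IRF2 (-0.64) were lower too. The interferon receptor gene IFNAR1, named after its values were seen, did not pass, at 5.82 and 5.76 FPKM with siNC and 6.12 and 5.94 with siOGT2 (0.05, adjusted p = 0.527). With siOGT1 IFNAR1 was at 2.60 and 2.94 FPKM, and the direct difference of 0.90 between the siRNAs passed (adjusted p = 1.94e-05).

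Most genes of antigen presentation were lower. Of 20 genes for MHC class I and its peptide supply, 17 were lower and 0 higher (median -0.403). The immunoproteasome subunit gene PSMB9 went from 23.0 and 19.6 FPKM to 12.2 and 10.3 (-0.87, SE 0.0822, adjusted p = 7.12e-05). Both peptide transporter genes fell, TAP2 by 0.78 on the log2 scale and TAP1 by 0.72, and so did NLRC5, the transactivator of class I genes (-0.71), and PSME2, a proteasome activator subunit (-0.58). Reads of the near-identical class I heavy chain genes may be split among them, so they are not given separately.

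Most tested genes of NF-kB signalling and its output were lower. Of 18 NF-kB factors, feedback inhibitors and cytokines, 13 were lower (72.2%, against 13.4% of all genes). None was higher, against 22.1%, and the median was -0.316. CCL5, a chemokine that draws T cells, went from 2.71 and 2.75 FPKM to 0.663 and 0.597 (-1.20, SE 0.065, adjusted p = 1.86e-06), on 82 and 83 reads against 18 and 15. With siOGT2 it averaged 0.63 FPKM, so its place in the test rests in part on the groups where it is higher. TNFAIP3, the feedback inhibitor A20, went from 25.3 and 26.2 to 14.9 and 14.1 (-0.78). CXCL8 (interleukin 8, -0.72), BIRC3 (an inhibitor of apoptosis, -0.59) and IL6 (interleukin 6, -0.53) were lower as well. By the direct test 13 of the 18 were lower with siOGT2 than with siOGT1, where 8.35% of all genes were.

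Among TNF ligands and cell death genes, the members called lower included some that promote and some that oppose death. Of 32 tested, 17 were lower (53.1%, against 13.4% of all genes) and 3 higher (9.38% against 22.1%), with a median of -0.145. Under the trimmed mean 19 were lower and 1 higher, and the lower count was 11 without siNC replicate 1, without siNC replicate 2 or without siOGT2 replicate 1. The members called higher were CASP6, TNFSF9 and BCL2L2, and 1 was higher without either siNC replicate. Besides TNFSF10, the B-cell survival factor gene TNFSF13B went from 7.83 and 6.68 FPKM to 1.88 and 1.85 (-1.52, SE 0.0708, adjusted p = 1.08e-06). Those that promote death included CASP1, the inflammatory caspase (-0.81), and PMAIP1, the BH3-only protein NOXA, from 124.8 and 122.4 FPKM to 81.7 and 81.1 (-0.60). BIRC2, which opposes death, went from 61.9 and 61.4 to 42.1 and 41.4 (-0.55) and was lower than with siOGT1 (-0.44, adjusted p = 3.94e-05).

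Of the 60 genes that fell by at least 2-fold, 34 were antiviral effectors, 39 belonged to at least 1 of the 4 interferon-related lists above and 17 were in none of the 34 lists. The 17 are named here after their values were seen, with log2 fold changes from -1.54 to -1.0. They were THEMIS2, NT5C3A, SMTNL1, CCDC194, PLAAT4, ETV7, GMPR, SLC15A3, LGALS9, PLEKHA4, TRANK1, PNPT1, GCA, SAMHD1, LIPA, ACKR4 and GIMAP2. SAMHD1 degrades the nucleotides that reverse transcription needs, PNPT1 is an RNA exonuclease of mitochondria, ETV7 is an ETS repressor, GMPR recycles guanine nucleotides and LGALS9 is galectin-9. LIPA, a lysosomal lipase gene, shares exons with IFIT2 on the opposite strand. ETV7 and ACKR4 averaged 0.973 and 0.949 FPKM with siOGT2, so their place in the test rests in part on the groups where they are higher.

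The motif shown in the promoters above was common in the effectors. GAAANNGAAA on either strand was present in a promoter, 250 bases before to 50 after the start, of 36 of the 53 tested effectors with a RefSeq promoter (67.92%). It was present in 368 of 8693 of all tested genes with a promoter (4.23%) and in 3.57% of the 35116 promoters of the table. Genes called lower outside the 4 interferon-related lists held it in 74 of 1065 (6.95%), and genes called higher in 60 of 1915 (3.13%). Counted by promoter, since some genes have several, it was present in 58.57% for effectors and 3.12% for all tested genes. Of the 12 largest falls, RSAD2, TNFSF10, GBP4, IFIT3, RTP4 and ISG15 held it, the letters were not in the windows of BATF2 and CMPK2, and IFIT2, OASL, USP18 and MX2 had no entry. A match describes the letters and does not show a bound site.

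Early response genes, which growth factors and stress switch on within minutes, were mostly lower. The share lower was 84.0% and the share higher 8.0%, against 13.4% and 22.1% of all genes. Of 25 tested, 21 were lower and 2 higher, IER2 and KLF2 (median -0.328), and 1 was higher without siNC replicate 1 or without either siOGT2 replicate. ATF3, a stress-induced transcription factor, went from 65.3 and 66.3 FPKM to 35.5 and 34.3 (log2 fold change -0.90, SE 0.0418, adjusted p = 1.08e-06). The phosphatase genes that shut off MAP kinases fell, DUSP5 by 0.62 on the log2 scale and DUSP1 by 0.54, and the nuclear receptor gene NR4A2 by 0.50. IER2 went the other way, from 2.45 and 2.66 FPKM to 3.60 and 4.30 (0.47, SE 0.0753, adjusted p = 0.00149). Against siOGT1, 11 of the 25 were lower with siOGT2 and 0 higher, where 8.35% and 8.24% of all genes were.

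Targets of p53 leaned lower with siOGT2. Of 28 tested, 14 were lower (50.0%, against 13.4% of all genes) and 3 higher, ZMAT3, XPC and TRIAP1 (10.7% against 22.1%), with a median of -0.116. BTG2, an antiproliferative gene, went from 72.9 and 70.6 FPKM to 56.2 and 53.2 (-0.39, SE 0.0429, adjusted p = 0.000202), and the exonuclease gene AEN from 64.2 in both libraries to 50.9 and 48.8 (-0.36). FAS, a death receptor gene with exons that overlap ACTA2, fell by 0.27 on the log2 scale, cyclin G1 (CCNG1) by 0.25 and the stress sensor gene SESN2 by 0.23. With siOGT1, BTG2 stood at 76.2 and 82.2 FPKM, above both siNC libraries. The direct test put 13 of the 28 lower with siOGT2 than with siOGT1, where 8.35% of all genes were, among them BTG2 (-0.53, adjusted p = 6.57e-05), CCNG1 (-0.32) and SESN2 (-0.32).

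Most mitotic genes tested were lower by small amounts, while few replication genes were called. Of 38 genes of G2/M and mitosis, 30 were lower (78.9%, against 13.4% of all genes) and 0 higher (median -0.225), and 16 were lower without siNC replicate 2. AURKB, the kinase of the chromosomal passenger complex, went from 8.10 and 8.45 FPKM to 5.64 and 5.65 (-0.48, SE 0.0451, adjusted p = 6.58e-05), and HMMR, a spindle assembly factor, from 34.4 and 34.9 to 25.1 in both (-0.45). The kinesin gene KIF2C (-0.39), AURKA of the spindle poles (-0.38) and CENPA, the histone of centromeres (-0.35), were lower too. Exons of CENPA overlap those of SLC35F6 on the same strand, so part of their reads may be shared. Of 36 genes of DNA replication and S phase, 4 were higher (among them MCM6, RFC1 and RFC2) and 3 lower (MCM10, FEN1 and CDC25A), which is 11.1% and 8.33% against 22.1% and 13.4% of all genes. The median of 0.011 turned to -0.025 under the trimmed mean, to -0.016 under quantile normalization and to -0.008 with equal sums, and 6 were lower under the trimmed mean or equal sums. MCM6, a helicase subunit, rose from 4.75 and 4.63 FPKM to 6.08 and 6.06 (0.31), whereas the flap endonuclease gene FEN1, which shares exons with neighbours, fell from 10.6 and 10.2 to 8.86 and 8.99 (-0.20). Leaving out siNC replicate 1, siNC replicate 2 or siOGT2 replicate 1 left 2 S phase genes higher and 1 lower.

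Most genes of the cytosolic ribosome rose by small amounts. Of 76 cytosolic ribosomal protein genes tested, 64 were higher and 0 lower (22.1% and 13.4% of all genes), with a median of 0.235 and a range from 0.03 to 0.49. RPL41 rose most, from 368.1 and 349.2 FPKM to 495.2 and 510.4 (SE 0.0425, adjusted p = 4.22e-05), followed by RPS3A, from 49.6 and 47.6 to 64.7 and 67.3 (0.43). RPL39, RPL23 and RPL3 rose by 0.36 each, and RPL3 stood at 101.1 and 102.2 FPKM with siNC and 130.7 and 130.4 with siOGT2. Against siOGT1, 49 of the 76 were higher with siOGT2 and 0 lower, where 8.24% and 8.35% of all genes were. The median difference was 0.197. The count higher ran from 43 without siNC replicate 2 to 67 with voom on recovered reads, and it was 54 under the trimmed mean. Ribosomal protein genes have many processed pseudogenes, so their separate levels are uncertain.

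Mitochondrial transcripts and respiratory genes also leaned higher. The share higher was 84.6% in the former and 47.6% in nuclear respiratory genes, against 22.1% of all genes. The share lower was 0 in both, against 13.4%. Under the trimmed mean 1486 of all 10547 genes were higher. Of the 13 protein genes of the mitochondrial genome 11 were higher and 0 lower (median 0.25), but 6 were higher under quantile normalization and 5 with no filter. MT-ND3, a subunit of complex I, went from 778.2 and 802.3 FPKM to 975.7 and 1037.3 (0.35, SE 0.056, adjusted p = 0.00159), MT-ND6 from 496.3 and 491.7 to 605.6 and 628.9 (0.32), and MT-CYB of complex III from 1349.4 and 1347.5 to 1646.8 and 1655.4 (0.29). The call for MT-CYB ended under quantile normalization, where its change was 0.0. Of 42 nuclear genes of oxidative phosphorylation 20 were higher and 0 lower (median 0.148), with 13 higher under the trimmed mean, 10 with no filter, 6 without siNC replicate 2 and 9 without siOGT2 replicate 2. NDUFB3 of complex I rose from 21.2 and 19.8 FPKM to 26.6 and 24.7 (0.31, SE 0.048, adjusted p = 0.00131) and SDHC of complex II by 0.26.

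Most antioxidant genes tested were higher. The share higher was 67.6% and the share lower 2.94%, against 22.1% and 13.4% of all genes. Of 34 NRF2 targets and genes of ferritin, glutathione and thioredoxin, 23 were higher and 1 lower (median 0.172), with 17 higher under the trimmed mean and 14 without siOGT2 replicate 2. PRDX4 led them, and the malic enzyme gene ME1, a source of NADPH, rose from 18.6 in both libraries to 22.5 and 24.6 FPKM (0.33, SE 0.0451, adjusted p = 0.000716). The member that fell was OSGIN1, an oxidative stress response gene, from 6.03 and 6.61 FPKM to 4.32 and 4.63 (-0.42, SE 0.0575, adjusted p = 0.00069).

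**Figure D4:**
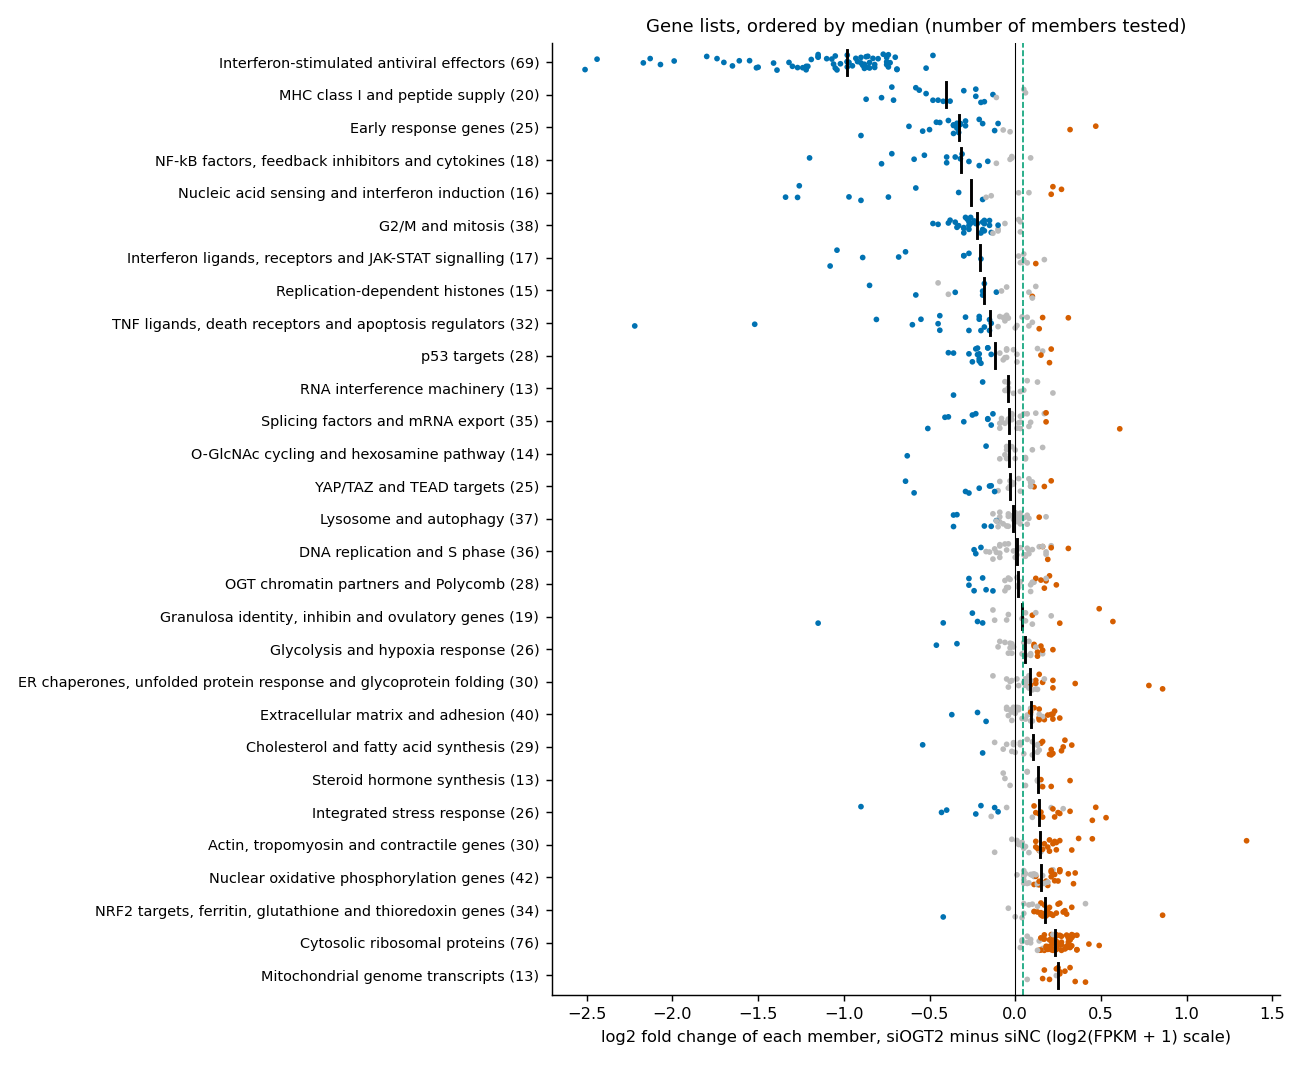
Log2 fold change of siOGT2 against siNC for each member of the 29 gene lists with at least 5 members tested (points, orange called higher, blue called lower, grey not called), with the list's median as a black bar, lists ordered by median and the median of all genes, 0.045, as a dashed line. Antiviral effectors lie between -2.51 and -0.48, and ribosomal proteins between 0.03 and 0.49.

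Of 30 genes of endoplasmic reticulum chaperones, the unfolded protein response and glycoprotein folding, 10 were higher (33.3%, against 22.1% of all genes) and 0 lower (median 0.085), and 6 were higher without siNC replicate 2 or without either siOGT2 replicate. Beyond PRDX4 and GANAB the rises were small, with the disulfide oxidase gene ERO1A at 0.35, from 8.99 and 8.09 FPKM to 11.4 and 10.8, and DNAJC3 and SEL1L at 0.22 each. Genes of the integrated stress response were split. Of 26 tested, 14 were higher (53.8%) and 7 lower (26.9%), against 22.1% and 13.4% of all genes. The median was 0.138, the counts were 10 and 7 under the trimmed mean, and the members that moved most went opposite ways. ATF3 and PPP1R15A, which feeds back on the pathway by restoring eIF2 activity, fell, the latter from 358.6 and 345.6 FPKM to 260.1 and 260.4 (-0.43). PSAT1 of serine synthesis rose from 19.3 and 21.2 to 28.4 and 30.9 (0.53, SE 0.0519, adjusted p = 9.21e-05), and the pseudokinase gene TRIB3 from 11.8 and 12.3 to 17.4 and 16.8 (0.47). Members higher numbered 8 without siNC replicate 2 and 9 without siOGT2 replicate 2, and members lower 4 without siNC replicate 1 or without either siOGT2 replicate.

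Of 29 genes of cholesterol and fatty acid synthesis 10 were higher (34.5%, against 22.1% of all genes) and 2 lower, STARD4 and HMGCS1 (6.9% against 13.4%), with a median of 0.101. Members higher numbered 5 without siNC replicate 2 and 6 without siOGT2 replicate 1, and members lower 1 without siNC replicate 1 or siOGT2 replicate 1. The largest change there was a fall, that of the sterol carrier gene STARD4, from 36.6 and 36.8 FPKM to 25.2 and 24.5 (-0.54, SE 0.034, adjusted p = 4.24e-06). FADS1, a fatty acid desaturase gene with exons that overlap FADS2, rose by 0.29 and LSS of sterol synthesis by 0.27. Of 26 genes of glycolysis and the hypoxia response 7 were higher (26.9%, near the share of all genes) and 2 lower (7.69%), with a median of 0.056, a balance that turned to 3 higher and 4 lower under the trimmed mean. Members higher there numbered 1 without siNC replicate 2, 2 without siOGT2 replicate 2, 3 without siNC replicate 1 and 4 without siOGT2 replicate 1. The peptide hormone gene ADM fell from 10.0 and 9.11 FPKM to 7.07 and 6.31 (-0.46), and the hexokinase gene HK2 from 33.3 and 33.6 to 26.2 and 26.3 (-0.34). Of 37 lysosome and autophagy genes 1, ATG9A, was higher and 6 were lower (16.2%, near the 13.4% of all genes), with a median of -0.011. There were 0 higher without siNC replicate 2, without either siOGT2 replicate or under the trimmed mean or equal sums, and 2 under quantile normalization. Among these MAP1LC3B, the autophagosome protein LC3B, went from 72.7 and 73.3 FPKM to 57.6 and 57.2 (-0.34, SE 0.0302, adjusted p = 4.61e-05), and WIPI1, which helps build autophagosomes, from 6.80 and 7.25 to 5.09 and 5.44 (-0.36). Both were lower than with siOGT1, at -0.35 for MAP1LC3B and -0.41 for WIPI1.

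Of 30 genes of the actin cytoskeleton tested, TPM4 among them, 18 were higher (60.0%, against 22.1% of all genes), 0 were lower and 12 did not pass (median 0.142), and under the trimmed mean 13 were higher and 1 lower. CNN2, an actin-binding calponin, went from 13.2 and 11.8 FPKM to 16.8 and 17.8 (0.45, SE 0.0529, adjusted p = 0.000296), and ACTB, cytoplasmic actin, from 432.0 and 408.8 to 528.5 and 560.7 (0.37, SE 0.0387, adjusted p = 0.000131). Of 40 genes of extracellular matrix and adhesion 15 were higher (37.5%, against 22.1% of all genes) and 3 lower, TIMP3, ITGA2 and ITGA5 (7.5% against 13.4%), with a median of 0.09, and 9 were higher under the trimmed mean and 8 without siNC replicate 2 or without siOGT2 replicate 2. Members lower numbered 1 without siNC replicate 1 or siOGT2 replicate 2 and 0 without siOGT2 replicate 1. The integrin gene ITGAV rose from 32.3 and 33.8 FPKM to 41.1 and 38.4 (0.26) and the collagen gene COL5A1 by 0.22. Targets of YAP/TAZ and TEAD showed 8 lower and 3 higher (AJUBA, AXL and PTPN14) of 25, which is 32% and 12% against 13.4% and 22.1% of all genes (median -0.033), with 1 higher without siNC replicate 1 or siOGT2 replicate 2, 5 higher without either siOGT1 replicate, and 5 lower without siNC replicate 1 or without siOGT2 replicate 1. ANKRD1, a classic target, went from 152.8 and 149.5 FPKM to 96.7 and 96.6 (-0.64, SE 0.0522, adjusted p = 2.7e-05), and the kinase gene NUAK2 from 4.52 and 5.32 to 2.83 and 3.04 (-0.59).

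Granulosa genes were measured as a check of the cell type and as a readout. The cells held NR5A1 (18.1 and 18.5 FPKM with siNC, 18.6 and 19.9 with siOGT2), FOXL2 (5.36 and 5.32, then 5.55 and 6.10), INHBA and GATA4, none of which passed. FSHR, the receptor of follicle-stimulating hormone, was listed at 0 in every library, and AMHR2, INHA, WT1 and the aromatase gene CYP19A1 averaged below the filter, so several defining granulosa genes were near 0. Of 19 granulosa, inhibin and ovulatory genes tested 4 were higher (among them INHBB, IGFBP5 and SOX4) and 5 lower (BTC, PGR, GATA6, ADAMTS1 and KITLG). The share higher, 21.1%, was near the 22.1% of all genes, and the share lower was 26.3% against 13.4%. Members higher numbered 2 without siNC replicate 1 or siNC replicate 2. The median of 0.038 turned to 0 under quantile normalization.

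BTC, the EGF-like ligand betacellulin, changed most of these, from 10.5 and 8.71 FPKM to 4.28 and 3.26 (-1.15, SE 0.103, adjusted p = 4.76e-05). The progesterone receptor gene PGR went from 2.35 and 2.42 to 1.65 and 1.40 (-0.42, SE 0.0704, adjusted p = 0.00185). INHBB, the beta B subunit of inhibin and activin, rose from 2.18 and 2.51 to 4.01 and 3.93 (0.57, SE 0.0628, adjusted p = 0.000186), and IGFBP5, which binds insulin-like growth factors, from 16.5 and 16.3 to 23.2 and 23.6 (0.49). Of 13 steroid synthesis genes 4 were higher (STAR, SRD5A1, AKR1C1 and AKR1C3; 30.8% against 22.1%) and 0 lower (median 0.131). Without siNC replicate 1 or either siOGT2 replicate 1 was higher, and without siNC replicate 2 or under the trimmed mean 2 were. STAR, which carries cholesterol into mitochondria and overlaps ASH2L, was at 1.40 and 1.23 FPKM with siNC and 1.64 and 2.16 with siOGT2 (0.32, adjusted p = 0.0219). STAR no longer passed without siNC replicate 2 (adjusted p = 0.123), without siOGT2 replicate 2 (adjusted p = 0.145) or with no filter (adjusted p = 0.0834).

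Leukocyte, oocyte and endothelial markers were low in both groups, while some markers of stroma and surface epithelium were not. Of 10 leukocyte markers 0 passed the filter, with summed levels of 0.87 and 0.964 FPKM with siNC and 0.683 and 0.475 with siOGT2, and LYZ was at 0 in every library. Of 7 oocyte markers 0 passed, and BMP15 and FIGLA were at 0. TEK was the only endothelial marker of 6 to pass the filter, at 1.62 in both siNC libraries and 1.65 and 1.18 with siOGT2. Of 7 theca and stroma markers LUM and NR2F2 passed the filter and neither was called, LUM at 8.62 and 8.60 FPKM and then 8.78 and 8.42, and NR2F2 at 13.5 and 13.8 and then 14.3 and 16.1. Of 8 surface epithelium markers 4 passed the filter and 3 keratin genes, KRT7, KRT8 and KRT18, were higher, KRT18 from 21 and 22.5 to 24.8 and 27.0 FPKM (0.24, adjusted p = 0.00543). Exons of KRT18 overlap those of KRT8 on the other strand, so part of their reads may be shared. The part of these markers in the results was not tested.

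Among nuclear partners of OGT the share called was near or above that of all genes. Of 28 chromatin partners and Polycomb genes 6 were higher (21.4% against 22.1%) and 6 lower (21.4% against 13.4%). Members higher numbered 2 under the trimmed mean and 3 under quantile normalization, with no filter 2 were higher and 3 lower, and the median of 0.019 was -0.022 under the trimmed mean and -0.003 with equal sums. The DNA dioxygenase gene TET2, a binding partner of OGT, went from 5.06 and 5.31 FPKM to 4.15 and 4.10 (-0.27, SE 0.0501, adjusted p = 0.00326), the Polycomb gene SUZ12 from 25.1 and 25.5 to 21.4 and 20.2 (-0.27), and the deacetylase gene HDAC1 rose by 0.24. SUZ12 stood at 12.3 and 13.1 FPKM with siOGT1 and was higher with siOGT2 than there (0.67, adjusted p = 2.18e-05). Without siNC replicate 1 or 2 members higher numbered 2 and lower 3, without siOGT2 replicate 2 they numbered 1 and 3, and without siOGT2 replicate 1 members lower numbered 3.

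Of 13 genes of the RNA interference machinery 2 were lower, AGO2 and PRKRA (15.4%, near the 13.4% of all genes), and 0 higher, and 1 was lower without siNC replicate 2 or siOGT2 replicate 2. PRKRA, a partner of Dicer, went from 5.75 and 5.84 FPKM to 4.43 and 4.19 (-0.36, SE 0.0626, adjusted p = 0.00258). Of 35 splicing and mRNA export genes 10 were lower (28.6%, against 13.4% of all genes) and 3 higher, THOC7, HNRNPA1 and ALYREF (8.57% against 22.1%), with a median of -0.035 and with 6 lower without siNC replicate 1 or siNC replicate 2 and 1 higher without siNC replicate 2 or siOGT2 replicate 2. SRSF3, a splicing factor of the SR family, went from 48.3 and 48.6 FPKM to 34.0 and 33.7 (-0.51, SE 0.0319, adjusted p = 4.56e-06), TRA2A fell by 0.41, and CLK1, the kinase of SR proteins, from 36.6 and 36.5 to 28.2 and 27.1 (-0.39). All 3 were lower than with siOGT1, CLK1 by -0.38 (adjusted p = 8.66e-05). Of 15 replication-dependent histone genes 7 were lower (46.7% against 13.4%) and 1, H1-2, was higher (median -0.18), with 4 lower without siNC replicate 1, siNC replicate 2 or siOGT2 replicate 2. Members higher numbered 0 without any siNC or siOGT2 replicate or under the trimmed mean, quantile normalization or equal sums, and 4 without either siOGT1 replicate. H4C15 went from 1.98 and 1.96 FPKM to 0.588 and 0.699 (-0.85), on 75 and 74 reads against 20 and 22. With siOGT2 it averaged 0.643 FPKM, so its place in the test rests in part on the groups where it is higher. H3C10 stood at -0.58 and H4C8 at -0.35, and histone genes share near-identical sequence.

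Compared with siOGT1 directly, siOGT2 differed in 1750 genes (16.6%), 869 higher (8.24%) and 881 lower (8.35%). The number fell to 1068 without siOGT2 replicate 1, 816 without siOGT2 replicate 2 and 1017 with no filter. This contrast leaves out the siNC libraries but shares the siOGT2 libraries with the main comparison, so the counts that follow are descriptions. Of the 1411 genes lower than siNC, 702 were also lower than with siOGT1 and 46 were higher. Of the 2329 genes higher than siNC, 511 were also higher than with siOGT1 and 5 were lower. The 6 genes furthest below siOGT1 were all antiviral effectors, IFIT2 (-1.25), RSAD2 (-1.11), OASL (-0.98), RTP4 (-0.97), CMPK2 (-0.96) and BATF2 (-0.93).

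The genes furthest above siOGT1 were, apart from LCE3A, genes that siOGT2 left near the siNC level. TNFRSF21, the death receptor DR6, stood at 21.7 and 22.6 FPKM in the siNC libraries, 6.06 and 6 under siOGT1 and 20.7 and 20.6 under siOGT2 (difference of the siRNAs 1.62, SE 0.0378, adjusted p = 1.86e-08). POLR1F, a subunit of RNA polymerase I, stood at 43.1 and 41.9, 15.1 and 14, and 43.8 and 44.7 FPKM (1.54). The sulfonucleotide transporter gene SLC35B2 (1.49), the actin regulator gene CAP1 (1.23) and the 14-3-3 gene YWHAQ (1.21) followed the same pattern. Against siNC, TNFRSF21 (-0.10, adjusted p = 0.0748, but 0.0224 under the trimmed mean), POLR1F (0.06, adjusted p = 0.294) and SLC35B2 (0.06, adjusted p = 0.352) did not pass with siOGT2. CAP1 passed at 0.10 (adjusted p = 0.0259) but not when any siNC or siOGT2 library was left out, nor under the trimmed mean or equal sums, and YWHAQ rose from 190.3 and 189.4 to 216.2 and 218.6 FPKM (0.19, adjusted p = 0.000752). In all, 486 genes differed between the siRNAs without being called for siOGT2.

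The 3′ UTRs of 10492 tested genes were searched for every 7-base word held by at least 100 of them and by at least 20 in each set of chromosomes, to describe which words went with higher or lower levels. On odd-numbered chromosomes the word whose holders were highest with siOGT2 was TCGGAGA, shown above in TPM4 and B4GALT1. On the even-numbered chromosomes and X, which did not enter that choice, its 106 holders had a median log2 fold change of 0.097 against 0.043 in 4809 other genes. There, 35.8% of holders and 20.9% of the others were called higher, and the word ranked 3 of 15696 by mean difference. Over all chromosomes 94 of 231 holders were called higher (40.7%) and 15 lower (6.5%), against 21.6% and 13.6% of the other genes. Of the 12 largest rises TPM4 and B4GALT1 held it, no 3′ UTR was found for LCE3A, and of the 12 largest falls 0 held it. Holders also stood higher with siOGT1, at a median of 0.081 on the even-numbered chromosomes and X against 0.031 in the other genes. That comparison shares the siNC libraries. On the same chromosomes siOGT2 minus siOGT1 had a median of 0.012 in holders and 0.005 in the others. The word was already known from an earlier description of these libraries, so the second set of chromosomes is no independent support, and a match shows neither a binding site nor a cause.

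**Figure D5:**
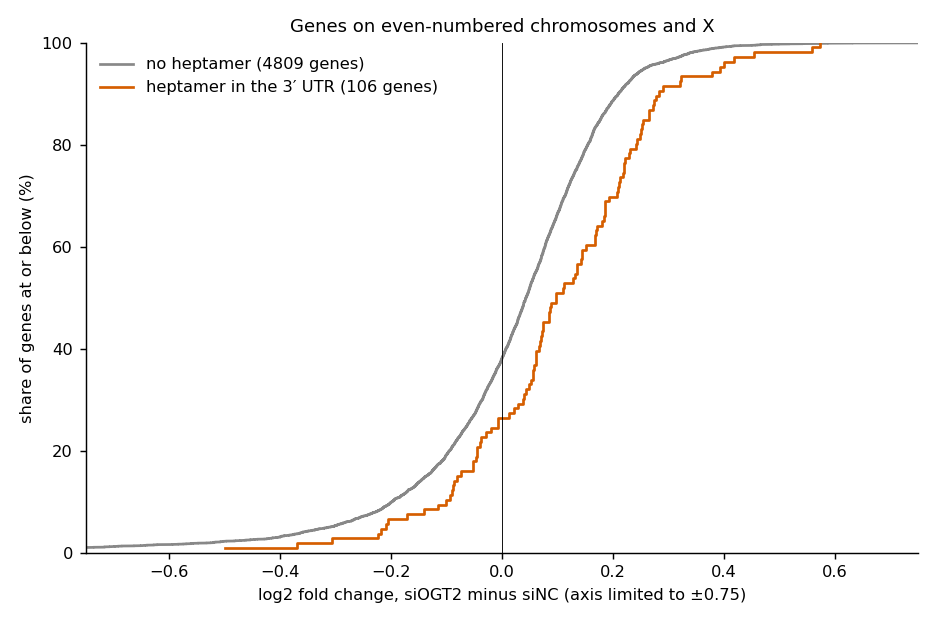
Share of genes (percent) at or below each log2 fold change of siOGT2 against siNC (axis limited to ±0.75) on even-numbered chromosomes and X, for the 106 genes whose 3′ UTR holds the heptamer (orange) and the 4809 others (grey). The curve of holders lies to the right, with medians of 0.097 and 0.043.

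The word whose holders were lowest on odd-numbered chromosomes was TTCGCTA, with a median of -0.007 in 66 holders against 0.046 in 5511 other genes. On the even-numbered chromosomes and X its 55 holders had a median of 0.01 against 0.045 in 4860 other genes. Of the holders 21.8% were called higher and 16.4% lower, near the 21.2% and 13.4% of the others. The word ranked 165 from the lowest of 15696 by mean difference.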

How the data were processed

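RNA-seq of 6 libraries of the KGN line was used, 2 each with siNC, siOGT1 and siOGT2. The deposited table holds FPKM per gene. Per the submitters' processing notes, reads were handled with cutadapt 1.15 and HISAT2 on GRCh38. The sources used here do not give the version of HISAT2, the program that counted reads or its annotation. Of 20036 Ensembl identifiers 20011 matched a gene name and 19852 GENCODE 29.

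Genes with a mean of at least 1 FPKM (10547) were tested with limma 3.58.1 in R 4.3.3 on log2(FPKM + 1). The model had a mean per group over the 6 libraries, an intensity trend and a two-sided moderated test, and p-values were adjusted by Benjamini-Hochberg over all genes tested. It left 3 residual degrees of freedom. The fit was tested on simulated data. Reads recovered from FPKM, whole within 0.01 read, gave the depth of each library and an alternative with voom.

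Named genes were OGT and OGA, the 12 largest rises and 12 largest falls, up to 5 members of each of 34 lists, the 6 largest differences from siOGT1 each way and marker genes, drawn on as far as each helped. Others were named after their values were seen, and a few genes are not reported here. The members and lists were chosen with earlier results of these data known. Replicate numbers did not pair libraries: deviations of siNC and siOGT2 libraries of the same number correlated at -0.026. Alternatives were other pseudocounts, filters and scalings, no trend, only siNC and siOGT2, a replicate block, voom and leaving out each library. Tables and figures were made with python 3.11.15, pandas 2.3.3, numpy 2.4.6 and matplotlib 3.10.9.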

Additional observations from a re-analysis of the deposited data

Results flagged for a closer look

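The effect of siOGT2 differed from that of siOGT1, by the limma test of siOGT2 minus siOGT1 itself, for 87 of the 123 genes named with a test. All values here are log2 differences, siOGT2 minus siOGT1, and 58 of them were negative and 29 positive, with adjusted p of at most 0.0446. The siOGT2 libraries are shared with the comparison against siNC. Many of the 123 were chosen for a large change with siOGT2, and some for a large difference from siOGT1 itself. Their share is therefore no measure of how often the siRNAs differ, which was 16.6% of all genes tested.

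Antiviral effectors and TNFSF10 were lower with siOGT2: IFIT2 (-1.25), RSAD2 (-1.11), OASL (-0.98), RTP4 (-0.97), CMPK2 (-0.96), BATF2 (-0.93), IFIT3 (-0.9), TNFSF10 (-0.87), USP18 (-0.8), MX2 (-0.8), ISG15 (-0.78), GBP4 (-0.51) and ADAR (-0.23), with TRIM14 (0.27) the other way. Sensors and signal carriers were lower as well, namely IFNB1 (-0.71), IRF7 (-0.65), IFIH1 (-0.64), DHX58 (-0.64), RIGI (-0.48), TLR3 (-0.46), IRF1 (-0.41), STAT2 (-0.36) and IRF2 (-0.32), while the receptor gene IFNAR1 was higher (0.9). Antigen presentation genes were lower by less, TAP1 (-0.32), PSMB9 (-0.31), TAP2 (-0.29), NLRC5 (-0.29) and PSME2 (-0.23). Among NF-kB and death genes the differences were CCL5 (-0.64), BIRC2 (-0.44), CXCL8 (-0.43), TNFAIP3 (-0.39), TNFSF13B (-0.36), BIRC3 (-0.33), IL6 (-0.31) and PMAIP1 (-0.17).

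Stress, early response and p53 genes were lower: ATF3 (-0.57), BTG2 (-0.53), CCNG1 (-0.32), SESN2 (-0.32), DUSP1 (-0.31), FAS (-0.29), OSGIN1 (-0.27), DUSP5 (-0.24) and PPP1R15A (-0.23). The YAP/TAZ targets NUAK2 (-0.49) and ANKRD1 (-0.23) were lower too. So were H4C15 (-0.54), WIPI1 (-0.41), CLK1 (-0.38), SRSF3 (-0.37), MAP1LC3B (-0.35), CENPA (-0.35), HMMR (-0.3), TRA2A (-0.27), H4C8 (-0.27), AURKB (-0.23), STARD4 (-0.21) and HK2 (-0.13).

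The genes furthest higher with siOGT2 were TNFRSF21 (1.62), POLR1F (1.54), SLC35B2 (1.49), CAP1 (1.23), LCE3A (1.21) and YWHAQ (1.21). Smaller positive differences were those of SUZ12 (0.67), PLAU (0.59), MCM6 (0.41), PSAT1 (0.34), PLA2G12A (0.32), ME1 (0.26), IGFBP5 (0.25), LUM (0.24), SDC1 (0.22), PRDX4 (0.18), CNN2 (0.18) and FADS1 (0.13). Translation and respiration genes were higher too, RPS3A (0.4), SDHC (0.34), RPL41 (0.32), RPL23 (0.3), NDUFB3 (0.26), RPL3 (0.25), RPL39 (0.2), MT-CYB (0.2) and MT-ND6 (0.19).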

How the results depend on the processing

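With 2 libraries a group, small changes rest on little replication, and 3 residual degrees of freedom limit the test. Genes higher against siNC numbered 1486 under trimmed-mean scaling and between 1241 (without siOGT2 replicate 2) and 2344 (without siOGT1 replicate 2) when a library was left out. Genes that differed from siOGT1 numbered 1017 with no filter and between 816 (without siOGT2 replicate 2) and 1533 (without siNC replicate 1). Genes lower stayed within 1.5 times 1411 in every setting, and the log2 fold change of OGT lay between -0.67 and -0.52 and passed throughout. MT-CYB was at 0.0 under quantile normalization (adjusted p = 1.0). The cause of these shifts was not tested. The call against siNC held in every setting that tested the gene (the filter at 5 FPKM leaves low genes out) for 114 of the 117 genes printed with their own values that passed, all but CAP1, STAR and MT-CYB. It was lost in at least 1 setting, and in at most 13, by 29 of the 36 called list members named without values, and by 0 of the 17 unlisted 2-fold falls. Of 986 list counts recomputed, 841 stayed within 1.5 times. With a replicate block, which the labels' numbers do not justify as a pairing, 2258 genes were higher and 1378 lower, 1674 differed from siOGT1, and OGT stood at -0.63 (adjusted p = 2.35e-05). Genes with under about 100 reads per library, such as LCE3A, IFNB1 and CCL5, carry a larger counting error.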
